A study of Mus musculus with 15 samples.

Results

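The genes of the major histocompatibility complex (MHC) were followed in the periprostatic fat of male mice. Periprostatic fat is the adipose tissue around the prostate. The members were chosen by name: every gene symbol that starts with H2-, the mouse MHC, together with Cd74, Ciita and B2m. This gave 47 of the 23995 symbols in the expression files. By role, 4 belong to classical class I with its light chain, 29 to non-classical class I and 12 to class II, and 2 carry the H2 prefix but encode no MHC chain. A level of at least 1 in at least 5 libraries was needed for the test, and 19 members passed: 4 class I, 6 non-classical, 7 class II and both genes with no MHC chain. The other 28 did not pass, and 5 of them, all non-classical, were listed at 0 in every library.

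RNA was sequenced from 15 C57BL/6 mice at 26 weeks of age, 5 in each of 3 groups. In the LFD group the diet supplied 10 kcal% fat, without any pellet. In the HFD placebo group it supplied 60 kcal% fat, and a placebo pellet was implanted. The HFD estradiol group differed from the latter in its pellet, which released 0.25 mg estradiol, an estrogen, over 60 days. Diets started at 6 weeks of age, the pellet followed 12 weeks later, and tissue was taken after 8 more weeks. Because LFD mice had no pellet, diet and pellet placement cannot be told apart between LFD and the other groups. No genotype other than the strain is given, and each library is labelled as a separate mouse.

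MHC class I molecules present peptides from inside the cell to CD8 T cells and are made by nearly all nucleated cells. Their heavy chain pairs with the light chain beta-2 microglobulin. MHC class II molecules present peptides taken up into endosomes to CD4 T cells. They are made mainly by dendritic cells, B cells and activated macrophages, and in fat they have also been described on adipocytes. The invariant chain Cd74 guards the class II groove until H2-DM exchanges its remnant for a peptide, and the transactivator Ciita switches on class II genes through the X and Y boxes of their promoters.

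All values are FPKM, in which fragments are divided by transcript length and by the size of the library, scaled by 1 factor per library, so they compare levels between genes per length. Changes are differences of log2(scaled FPKM + 1), called log2 differences, which understate the change of low genes, and each adjusted p comes from limma with the Benjamini-Hochberg correction over 5615 tested genes. The deposited sums ran from 34449 to 105910 per library, the number of genes above 0 from 13891 to 16648, and the small RNA Mir6236 took 10.16% to 53.1% of a sum. For a 1.2 kb transcript, a level of 1 stood for an estimated 11.4 to 123 fragments. By the names of the files all LFD libraries ran on sequencing lane 5 and all estradiol libraries on lane 6, with 3 placebo libraries on lane 5 and 2 on lane 6. Of the markers for fat, all 9 adipocyte markers were measured, and they summed to between 890.4 and 2581 in every library. Markers of prostate and seminal vesicle epithelium summed to at most 1.87, with Svs2 and Svs4 listed at 0 throughout.

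Promoter stretches are shown first, because the results below turn on these class II genes and on the H2-K1 and H2-D1 pair. They come from RefSeq windows of GRCm38.p6 that cover 250 bases before to 50 after each start, and 32 of the 47 members had such a window, 13 of them tested. The gene positions given below are from GENCODE vM21, whose starts can differ. By those positions the stretches of H2-DMb1, H2-DMb2 and H2-D1 lie inside the gene. In the class II stretches, capitals mark the X1 core (AACNGATG) and the Y box (TGATTGG). They belong to H2-Aa (chr17:34287857-34287923, minus strand), H2-Eb1 (chr17:34305756-34305822, plus strand), H2-DMb1 (chr17:34153078-34153144, plus strand) and H2-DMb2 (chr17:34145107-34145173, plus strand).
H2-Aa: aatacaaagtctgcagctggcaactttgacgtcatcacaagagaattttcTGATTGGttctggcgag
H2-Eb1: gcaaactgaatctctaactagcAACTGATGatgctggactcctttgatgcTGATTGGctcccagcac
H2-DMb1: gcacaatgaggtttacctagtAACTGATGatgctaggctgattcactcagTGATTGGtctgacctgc
H2-DMb2: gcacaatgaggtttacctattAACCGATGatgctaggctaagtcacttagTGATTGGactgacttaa

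The H2-Aa stretch holds a Y box but no X1 core of these letters. The stretches of H2-DMb1 and H2-DMb2 differ at 9 of 67 bases. The letters of the motifs were picked with these promoters in view, and both strands were searched. A Y box lay in 24 of 35 windows of members and in 7.82% of all 32851 windows, and an X1 core in 5 of 35 and in 2.32%. The Y box was not confined to class II, as windows of H2-K1, H2-D1 and non-classical genes held it too. Nor was the X1 core, which also lay in the window of the non-classical gene H2-M10.4. The window of the class II gene H2-DMa held neither motif. The match is a description of these letters and not a site. For class I, the stretches of H2-K1 (chr17:34000420-34000468, minus strand) and H2-D1 (chr17:35262913-35262961, plus strand) differ at 1 of 49 bases. Capitals mark an NF-kappaB site and an interferon-stimulated response element (TTTCNNTT).
H2-K1: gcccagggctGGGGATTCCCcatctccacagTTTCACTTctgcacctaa
H2-D1: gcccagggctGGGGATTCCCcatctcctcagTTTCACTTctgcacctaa
The NF-kappaB letters lay in 5 of 35 windows of members and in 0.183% of all windows. The response element lay in 21 of 35 and in 23.9%.

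The class II chains were about 2 times higher in HFD placebo than in LFD and returned to near the LFD level with estradiol. The chains are the alpha chain H2-Aa (GRCm38 chr17:34282744-34287823) and the beta chain H2-Ab1 (chr17:34257689-34269419), which pair as I-A, and the beta chain H2-Eb1 (chr17:34305867-34316674) of I-E. H2-Aa stood at 28.1, 16.0, 29.6, 23.9 and 23.2 in the LFD libraries. It stood at 46.2, 54.0, 67.8, 61.9 and 47.5 with placebo and at 27.4, 19.7, 21.7, 14.6 and 18.0 with estradiol. Every placebo library lay above every other library. The mean of H2-Aa was 24.1 ± 5.30 in LFD, 55.5 ± 9.33 with placebo and 20.3 ± 4.74 with estradiol (SD, n = 5 each, as for all means below). The log2 difference was 1.18 ± 0.18 (SE) for placebo against LFD and -1.42 ± 0.18 for estradiol against placebo (limma adjusted p = 7.1e-05 and 2.9e-05).

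H2-Ab1 stood at 20.2, 12.2, 24.2, 21.1 and 16.1 in LFD, at 32.3, 40.0, 47.975, 40.1 and 31.9 with placebo, and at 20.0, 13.97, 20.0, 10.97 and 18.2 with estradiol. The placebo libraries again overlapped neither other group. The log2 differences of H2-Ab1 were 1.02 and -1.18 (limma adjusted p = 4.9e-04 and 2.4e-04). H2-Eb1 stood at 9.54, 6.49, 10.2999, 9.21 and 7.69 in LFD, at 16.4, 18.1, 25.5, 22.9 and 16.0 with placebo, and at 10.7, 6.70, 8.29, 5.82 and 7.09 with estradiol. Its log2 differences were 1.10 and -1.26 (limma adjusted p = 5.9e-05 and 3.8e-05), with no overlap in either. Mice of the H2b haplotype, which C57BL/6 carries, are known to make no I-E alpha chain, so that H2-Eb1 has no partner. H2-Ea-ps, the entry for that alpha chain, was above 0 in 1 of 15 libraries, at 0.0307.

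Cd74, the invariant chain, is encoded outside the complex and was the highest class II member. It stood at 59.7, 34.5, 58.6, 55.3 and 47.9 in LFD, at 86.2, 104, 137, 108 and 91.5 with placebo, and at 59.1, 45.3, 49.5, 29.9 and 43.7 with estradiol. The placebo libraries lay above both other groups. The log2 differences of Cd74 were 1.03 ± 0.19 and -1.21 ± 0.19 (limma adjusted p = 3.6e-04 and 1.7e-04). In level, Cd74 stood at 2.40 to 3.24 times H2-Ab1 in every library, with group medians of 2.83, 2.69 and 2.73 in LFD, placebo and estradiol. The ratio of H2-Aa to H2-Ab1 ran from 1.13 to 1.44 in LFD, from 1.35 to 1.54 with placebo and from 0.986 to 1.41 with estradiol, with medians of 1.31, 1.43 and 1.33. For both ratios all groups overlapped, and differences between them were not tested.

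**Figure D1:**
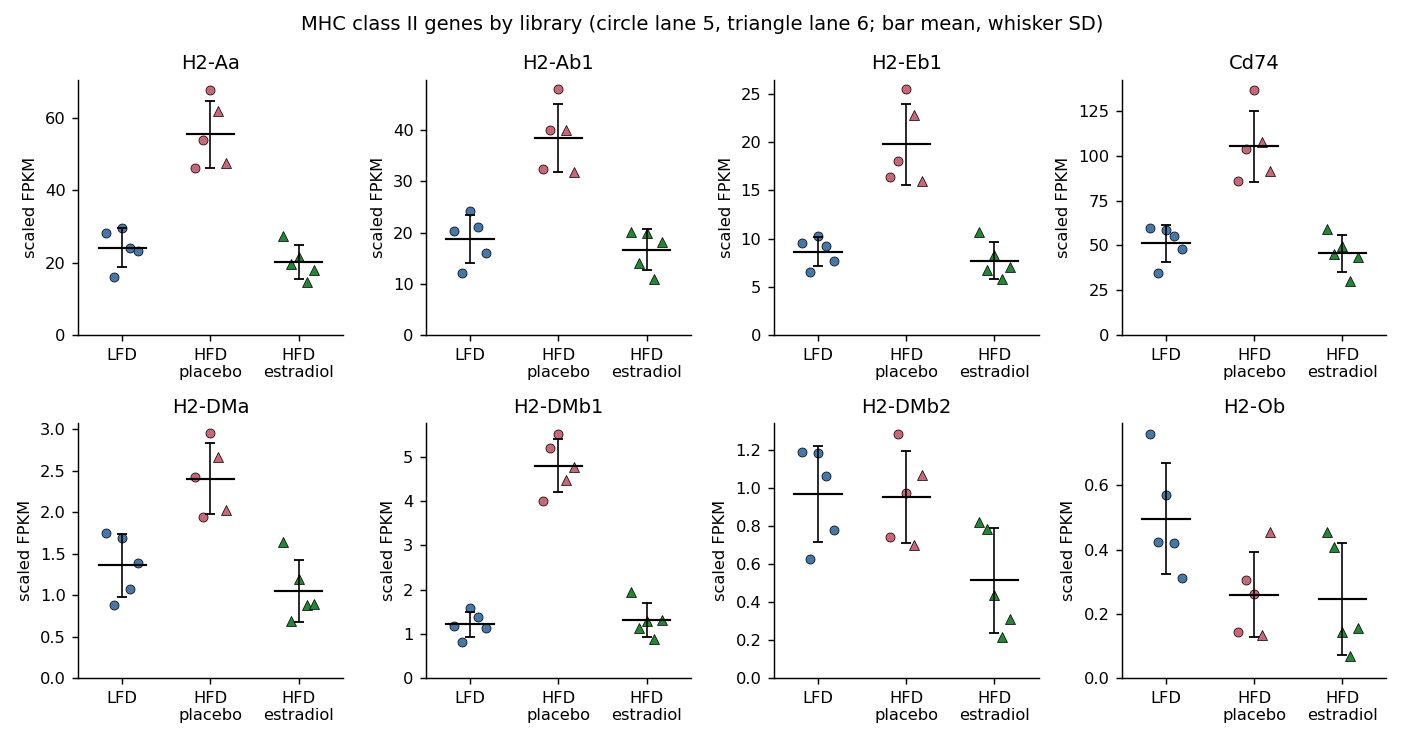
Scaled FPKM of 8 class II genes in each library (vertical axis, linear from 0, own scale for each gene), by group. Circles are lane 5 libraries and triangles lane 6, the bar is the group mean and the whisker 1 SD. The placebo libraries lie above both other groups for H2-Aa, H2-Ab1, H2-Eb1, Cd74, H2-DMa and H2-DMb1, and overlap the LFD libraries for H2-DMb2 and H2-Ob.

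The genes of H2-DM, the peptide exchanger, were all called lower with estradiol than with placebo. With placebo against LFD, H2-DMa and H2-DMb1 were called higher and H2-DMb2 was not. H2-DMa, the alpha chain, stood at 1.75, 0.883, 1.69, 1.08 and 1.39 in LFD, at 2.42, 1.94, 2.95, 2.66 and 2.02 with placebo, and at 1.64, 0.685, 1.196, 0.877 and 0.889 with estradiol. The groups did not overlap between placebo and the others, with log2 differences of 0.53 and -0.73 (limma adjusted p = 0.00351 and 5.0e-04). H2-DMb1, a beta chain (chr17:34153072-34160230), stood at 1.19, 0.823, 1.58, 1.38 and 1.13 in LFD, at 4.00, 5.20, 5.52, 4.48 and 4.76 with placebo, and at 1.95, 1.14, 1.30, 0.893 and 1.31 with estradiol. Its mean was 3.93 times the LFD mean with placebo, a log2 difference of 1.39 ± 0.11 (limma adjusted p = 5.8e-07). Estradiol against placebo gave -1.33 ± 0.11 on the log2 scale (limma adjusted p = 1.7e-06).

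H2-DMb2, the neighbouring beta chain gene (chr17:34143307-34151555), stood at 1.19, 0.631, 1.18, 1.06 and 0.779 in LFD and at 0.741, 1.29, 0.972, 0.703 and 1.07 with placebo. These groups overlapped. The log2 difference was -0.01 (95% interval -0.28 to 0.26, limma adjusted p = 0.959), and with FPKM as deposited it was 0.58 (limma adjusted p = 0.0477). With estradiol it stood at 0.824, 0.784, 0.441, 0.218 and 0.312, below placebo by -0.38 on the log2 scale (limma adjusted p = 0.0333), with some overlap. That call was lost without placebo 2 or 3 or estradiol 3, 4 or 5, with log2 differences from -0.37 to -0.30, and with lane as a term (-0.33, limma adjusted p = 0.247). Against LFD the log2 difference of H2-DMb2 was -0.39 (95% interval -0.66 to -0.12, limma adjusted p = 0.0786), and -0.45 without estradiol 1 (limma adjusted p = 0.0471).

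As a share of both beta chain genes, H2-DMb1 made up 49.9% to 59.2% in LFD, 80.2% to 86.4% with placebo and 59.2% to 80.8% with estradiol. The placebo shares lay above every LFD share, and the estradiol shares lay between and touched both ranges. Of the 50-base words in their transcripts, 22.7% of those of H2-DMb1 also occur in H2-DMb2, and how shared reads were split between the genes is not stated. The difference between the genes was not tested.

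Over all 19 tested members, 11 were called for placebo against LFD, beside 43.3% of all tested genes, 12 for estradiol against placebo, beside 30.4%, and 1 for estradiol against LFD, beside 7.69%. Those whose groups did not overlap numbered 8, 7 and 1, beside 27.6%, 21.2% and 8.05% of all tested genes. None of the 19 was called higher with estradiol than in LFD, where 3.95% of all tested genes were. The 1 called lower there was H2-Q10, which passed the filter through the LFD group. By class, 6 of 7 tested class II members rose in HFD placebo over LFD, where 21.3% of all tested genes rose. Their median log2 difference was 1.03 against -0.01 over all tested genes. All 7 tested fell with estradiol against placebo, where 16% of all tested genes fell, with a median of -1.21 against 0.01. Of these, H2-DMb2 reached 1 in 0 estradiol libraries, so it passed the filter through the other groups. Without a filter its fall was not called (limma adjusted p = 0.0599). Between estradiol and LFD, limma called 0 of 7. Their log2 differences there ran from -0.39 for H2-DMb2 to 0.06 for H2-DMb1, and the interval for H2-Aa was -0.62 to 0.14. Summed over the class, the level ran from 72.4 to 128 in LFD, from 189 to 289 with placebo and from 63.6 to 123 with estradiol, and the placebo libraries stood above the others. These comparisons share groups, so a member high in placebo alone moves in opposite directions in both.

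Lane was not shared evenly between groups, so the comparisons were repeated within lanes. On lane 5, placebo against LFD gave 1.18 for H2-Aa, 1.06 for H2-Ab1, 1.08 for H2-Eb1 and 1.07 for Cd74 (limma adjusted p from 8.2e-04 to 0.00309). On lane 6, estradiol against placebo gave -1.43 for H2-Aa, -1.12 for H2-Ab1, -1.27 for H2-Eb1 and -1.16 for Cd74 (limma adjusted p from 0.011 to 0.0275). H2-DMb1 gave -1.44 on lane 6 (limma adjusted p = 0.00419) and did not pass the filter on lane 5. H2-DMa gave 0.48 on lane 5 and -0.83 on lane 6 (limma adjusted p = 0.013 and 0.0311). H2-DMb2 did not pass the filter on either lane. For the class II members that did, the differences between the groups were thus of similar size within a lane. For estradiol against LFD no lane held both groups.

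Ciita, H2-Oa and H2-Ob, the regulators of class II, stayed below the level needed for the test. Ciita, the transactivator (chr16:10480059-10528418), stood at 0.585, 0.409, 0.276, 0.395 and 0.556 in LFD, at 0.497, 0.671, 1.09, 0.894 and 0.650 with placebo, and at 0.578, 0.367, 0.301, 0.188 and 0.251 with estradiol. The placebo libraries tended higher and overlapped both other groups. In a fit of every gene above 0 in at least 1 library, Ciita gave log2 differences of 0.28 and -0.39 (limma adjusted p = 0.0489 and 0.0115). H2-Ob, the beta chain of H2-DO, a brake on H2-DM made mainly by B cells, stood at 0.312 to 0.758 in LFD, 0.134 to 0.455 with placebo and 0.0691 to 0.454 with estradiol. Its log2 differences were -0.25 and -0.02 in that fit (limma adjusted p = 0.102 and 0.942). H2-Oa, its partner, ran from 0 to 0.356, and the beta chain H2-Eb2 from 0 to 0.0691.

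The classical class I heavy chains H2-K1 and H2-D1 had placebo means 1.52 and 1.43 times the LFD mean and returned to near that level with estradiol. H2-K1 (chr17:33996017-34000347) stood at 33.5, 31.3, 35.1, 32.1 and 29.99 in LFD, at 35.4, 44.3, 53.0, 68.0 and 45.6 with placebo, and at 33.5, 32.3, 35.0, 29.3 and 33.8 with estradiol. Every placebo library lay above the others, with placebo 1 only just above LFD 3. The mean was 32.4 ± 1.98 in LFD, 49.3 ± 12.2 with placebo and 32.8 ± 2.18 with estradiol. The log2 differences of H2-K1 were 0.56 ± 0.13 and -0.54 ± 0.13 (limma adjusted p = 0.00317 and 0.00568).

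H2-D1 (chr17:35262730-35267499) stood at 41.9, 33.0, 40.1, 39.3 and 34.9 in LFD, at 40.3, 48.4, 64.5, 67.6 and 49.3 with placebo, and at 42.9, 37.3, 41.2, 34.9 and 36.7 with estradiol. Placebo 1 lay within both other groups and the other placebo libraries above them. The log2 differences were 0.48 and -0.45 (limma adjusted p = 0.00808 and 0.0165). Between estradiol and LFD, H2-K1 differed by 0.02 (95% interval -0.27 to 0.30) and H2-D1 by 0.03 (-0.25 to 0.31). The ratio of H2-K1 to H2-D1 had group medians of 0.860, 0.916 and 0.850.

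B2m, the light chain (chr2:122147686-122153083), was the highest member. It stood at 298, 266, 391, 304 and 291 in LFD, at 330.2, 416, 367, 464 and 337 with placebo, and at 255, 326, 413, 299 and 510.4 with estradiol. All groups overlapped. The log2 difference was 0.30 for placebo against LFD (95% interval -0.07 to 0.68, limma adjusted p = 0.185) and -0.12 for estradiol against placebo (-0.50 to 0.26, limma adjusted p = 0.665). The first was called on the deposited scale (1.45, limma adjusted p = 0.0255) and with a constant sum (0.75, limma adjusted p = 0.0233), where the median of all tested genes rose by 0.77 and 0.28. H2-L, which the H2b haplotype is known to lack, was under 0.001 in LFD 1, 3 and 4 and between 0.298 and 1.36 elsewhere. It was called by limma in none of the 3 comparisons, but was higher in placebo than LFD on the deposited scale (0.83, limma adjusted p = 0.0046) and with a constant sum (0.55, limma adjusted p = 0.0485).

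Of 4 tested class I members, 2 rose with placebo over LFD and 2 fell with estradiol against placebo, beside 21.3% and 16% of all tested genes. Their median log2 differences were 0.44 and -0.29, beside -0.01 and 0.01 over all tested genes. Between estradiol and LFD limma called none of the 4. Within lane 5, placebo against LFD gave 0.42 for H2-K1 and 0.40 for H2-D1 (limma adjusted p = 0.0312 and 0.0694), and within lane 6, estradiol against placebo gave -0.76 and -0.58 (limma adjusted p = 0.0337 and 0.0643). The falls of H2-K1 and H2-D1 lost their calls under another scaling. On the deposited scale, which put the median over all tested genes at -0.27, they were -0.89 and -0.79 (limma adjusted p = 0.513 and 0.614).

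**Figure D2:**
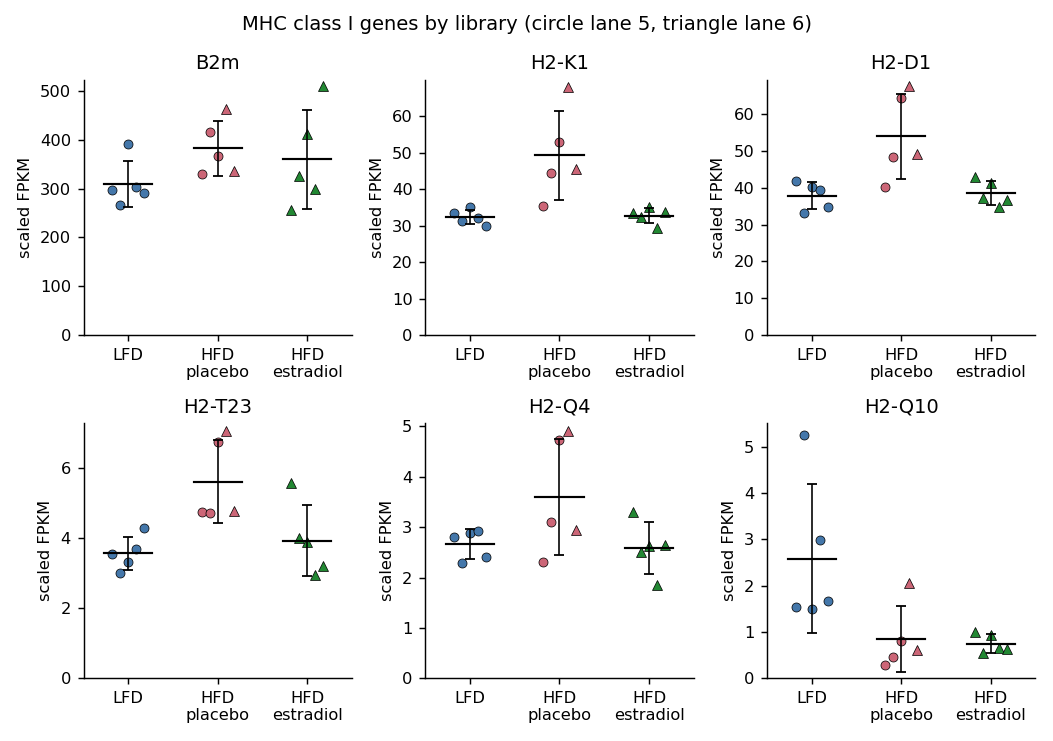
Scaled FPKM of 6 class I genes in each library (vertical axis, linear from 0, own scale for each gene), by group. Circles are lane 5 libraries and triangles lane 6, the bar is the group mean and the whisker 1 SD. The placebo libraries of H2-K1 and H2-T23 lie above all LFD libraries, those of B2m overlap both other groups, and H2-Q10 is highest in LFD.

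Among the 6 tested non-classical class I genes, H2-T23 was called higher and H2-Q10 lower with placebo than in LFD, and H2-Q4, H2-Q8, H2-T22 and H2-T9 were not called in that comparison. H2-T23 encodes Qa-1, which presents leader peptides of other class I chains to receptors of natural killer cells. It stood at 3.54, 3.01, 3.30, 3.67 and 4.28 in LFD, at 4.74, 4.71, 6.73, 7.05 and 4.78 with placebo, and at 5.55, 3.99, 3.90, 2.95 and 3.20 with estradiol. The placebo libraries lay above LFD, and estradiol 1 lay among them. The log2 differences of H2-T23 were 0.52 and -0.43 (limma adjusted p = 0.00609 and 0.0268). Within lane 5 the rise was 0.45 (limma adjusted p = 0.016). The fall was not called without placebo 3 or 4 or estradiol 4 or 5 (log2 differences -0.38 to -0.35), nor within lane 6, where it was -0.53 (limma adjusted p = 0.155), nor on the deposited scale, at -0.76 (limma adjusted p = 0.475).

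H2-Q10, a secreted class I chain best known from liver, stood at 1.53, 5.24, 1.49, 2.99 and 1.66 in LFD, at 0.291, 0.461, 0.812, 2.07 and 0.615 with placebo, and at 0.990, 0.550, 0.947, 0.647 and 0.628 with estradiol. It was high in LFD and low in both high-fat groups. It passed the filter through the LFD group, so its calls against LFD are no support. LFD and estradiol did not overlap. The log2 difference was -0.93 for placebo against LFD and -0.94 for estradiol against LFD (limma adjusted p = 0.00682 and 0.0301), and -0.01 between the high-fat groups (95% interval -0.54 to 0.51). The difference between estradiol and LFD was not called without LFD 2, LFD 4, estradiol 2, estradiol 4 or estradiol 5, with values from -0.93 to -0.73. Within lane 5 placebo against LFD gave -0.97 (limma adjusted p = 0.0132). With FPKM as deposited both were smaller, at -0.09 and -0.41 (limma adjusted p = 0.761 and 0.284), where the median of all tested genes rose by 0.77 and 0.49.

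H2-Q4 had means of 2.67 ± 0.293, 3.60 ± 1.15 and 2.58 ± 0.515 in LFD, placebo and estradiol, with log2 differences of 0.29 and -0.34 (limma adjusted p = 0.116 and 0.0946). Without placebo 1 both were called, at 0.41 and -0.45 (limma adjusted p = 0.0278 and 0.0242). H2-T22, a ligand of gamma delta T cells, had means of 1.30 ± 0.631, 1.53 ± 0.373 and 1.39 ± 0.507. H2-T9 had means of 1.90 ± 0.967, 2.40 ± 1.40 and 1.68 ± 0.568. Neither was called by limma in any of the 3 comparisons with the factors used here. On the deposited scale placebo against LFD was called for H2-Q4 (1.19), H2-T22 (0.91) and H2-T9 (1.03), with limma adjusted p of 0.00917, 0.0142 and 0.0128. With a constant sum it was called for H2-Q4 (0.63) and H2-T22 (0.44), with limma adjusted p of 0.0146 and 0.0468.

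H2-Q6, H2-Q7, H2-Q8 and H2-Q9 are near copies that encode Qa-2, and their values jumped between libraries. H2-Q8 was at 1.51 and 1.498 in LFD 2 and 5 and under 0.001 in the other LFD libraries. It ran from 0.623 to 2.42 with placebo, and with estradiol it was at 0.640 and 0.902 in 2 libraries and under 0.001 in 3. The fall with estradiol of -0.94 on the log2 scale (limma adjusted p = 0.0343) is that of 1 near copy among these. The call was lost without placebo 2 or estradiol 2, 3 or 4 (log2 differences -0.98 to -0.84). Placebo against LFD gave 0.73 (limma adjusted p = 0.0719), and was called without LFD 2, LFD 5 or placebo 5 (0.84 to 0.96). Summed over the 4 genes, the level was steadier, at 2.31 to 3.25 in LFD, 2.39 to 5.63 with placebo and 1.89 to 3.21 with estradiol. Of 50-base words, 32.0% of those of H2-Q6 and 34.5% of those of H2-T22 also occur in other genes, against 13.6% for H2-T23 and 0 for H2-Ab1.

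In all, 1 of 6 tested non-classical members rose and 1 fell in placebo against LFD, shares near the 21.3% and 22% of all tested genes. With estradiol against placebo, 0 rose and 2 fell, beside 14.3% and 16%. H2-Q8, 1 of the 2, reached 1 in 0 estradiol libraries, so it passed the filter through the other groups. Without a filter neither H2-Q8 nor H2-T23 was called (limma adjusted p = 0.0708 and 0.0558). Against LFD, 1 of 6 fell with estradiol, beside 3.74%. H2-Q10, which fell in both comparisons with LFD, passed the filter through the LFD group. Among the 23 that were not tested, H2-M3, which presents formylated peptides, ran from 0.206 to 0.823 and H2-T24 from 0.613 to 1.30. H2-M1, H2-M10.1, H2-M10.3, H2-M10.4 and H2-M11 were listed at 0 throughout. In the fit without a filter, 23 untested members of any class could be fitted, and limma called 3 of them for placebo against LFD, beside 20.7% of all genes in that fit. They were Ciita, H2-M2 and H2-Q2. H2-M2 ran from 0 to 0.0406 in LFD, from 0.0378 to 0.119 with placebo and from 0 to 0.0417 with estradiol, and H2-Q2 had means of 0.190, 0.338 and 0.216. For estradiol against placebo 2 were called, Ciita and H2-M2, beside 13.8%, and for estradiol against LFD 0, beside 2.11%.

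**Figure D3:**
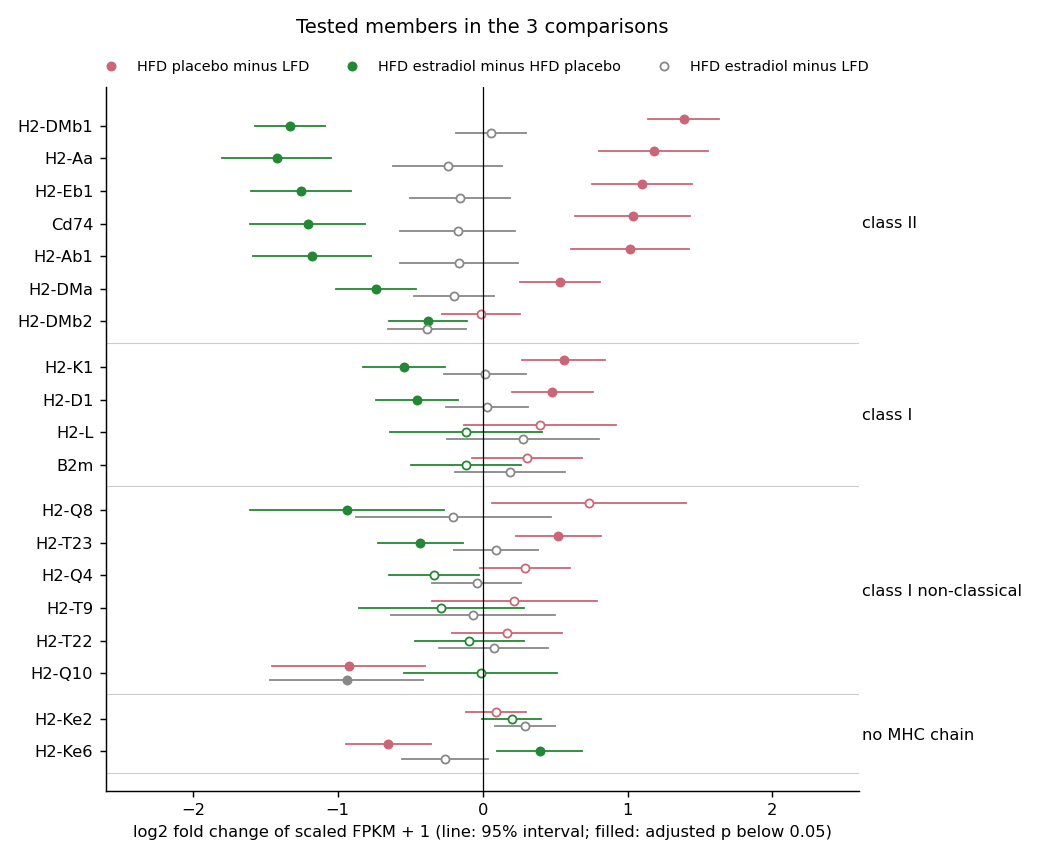
Log2 difference of the 19 tested members in the 3 comparisons (horizontal axis, difference of log2(scaled FPKM + 1); lines are 95% intervals from limma, filled points have an adjusted p below 0.05). H2-Aa, H2-Ab1, H2-Eb1, Cd74 and H2-DMb1 lie above 1 for placebo minus LFD and below -1 for estradiol minus placebo. H2-Q10 is the member called lower for estradiol minus LFD, and it passed the filter through the LFD group.

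Of the pair with the H2 prefix but no MHC chain, H2-Ke6 was called and H2-Ke2 was not. H2-Ke6 (chr17:34026033-34028060) encodes the hydroxysteroid dehydrogenase Hsd17b8, an enzyme able to oxidise estradiol. It stood at 2.25, 3.83, 1.77, 3.04 and 3.56 in LFD, at 1.03, 1.196, 1.77, 1.77 and 1.46 with placebo, and at 2.44, 2.17, 2.54, 1.76 and 2.07 with estradiol. LFD and placebo touched at 1.77. Within lane 5 placebo against LFD gave -0.63 (limma adjusted p = 0.0135). The log2 difference was -0.65 for placebo against LFD (limma adjusted p = 0.0014) and 0.39 for estradiol against placebo (limma adjusted p = 0.0432), and with FPKM as deposited the first was 0.22 (limma adjusted p = 0.554). The rise with estradiol was not called without any 1 of placebo 1, 2 or 5 or estradiol 1, 2, 3 or 5 (log2 differences 0.33 to 0.41), and it was 0.32 within lane 6 (limma adjusted p = 0.134). Of its 50-base words 70.5% also occur in transcripts of other annotated genes. H2-Ke2, a prefoldin subunit now named Pfdn6 (chr17:33938821-33940343), ran from 1.86 to 2.92 in LFD, from 2.20 to 3.09 with placebo and from 2.72 to 3.46 with estradiol. Its log2 difference for estradiol against LFD was 0.29 (limma adjusted p = 0.0818), and 0.35 without LFD 1 (limma adjusted p = 0.046).

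Single class II genes were set against single class I genes with ratios inside each library, which do not depend on the scaling. Each ratio speaks for its pair of genes and not for the classes. The ratio of Cd74 to B2m ran from 0.130 to 0.200 in LFD, from 0.233 to 0.374 with placebo and from 0.0856 to 0.231 with estradiol. The placebo ratios lay above both other groups. The mean log2 ratio differed by 0.74 between placebo and LFD and by -1.11 between estradiol and placebo (exact two-sided permutation test, p = 0.0079 for each, the smallest that 5 against 5 can give, and 0.0238 after Benjamini-Hochberg adjustment over 6 tests). Between estradiol and LFD it differed by -0.36 (exact permutation p = 0.21, adjusted 0.257), and by -0.58 without estradiol 1 (adjusted 0.0476).

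The ratio of H2-Ab1 to H2-K1 ran from 0.390 to 0.690 in LFD, from 0.589 to 0.912 with placebo and from 0.375 to 0.598 with estradiol. The groups overlapped. The log2 ratio differed by 0.49 between placebo and LFD (exact permutation p = 0.048, adjusted 0.0714), by -0.67 between estradiol and placebo (exact permutation p = 0.016, adjusted 0.0317) and by -0.19 between estradiol and LFD (exact permutation p = 0.33, adjusted 0.333). Placebo 1 to 3, on lane 5, stood at 0.903 to 0.912, and placebo 4 and 5, on lane 6, at 0.589 and 0.699. Within lane 5 the difference between placebo and LFD was 0.69 (exact permutation p adjusted 0.0357). Within lane 6 that between estradiol and placebo was -0.37 (adjusted 0.19). There, 2 placebo libraries against 5 leave too few permutations for a p below 0.05, so that test cannot decide. Over both lanes, the call for estradiol against placebo was lost without any 1 of placebo 1, 2, 3 or 5 or estradiol 2, 3, 4 or 5, with values from -0.72 to -0.57 (adjusted 0.0635 each). Without placebo 4 the difference between placebo and LFD was 0.59 (adjusted 0.0238).

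**Figure D4:**
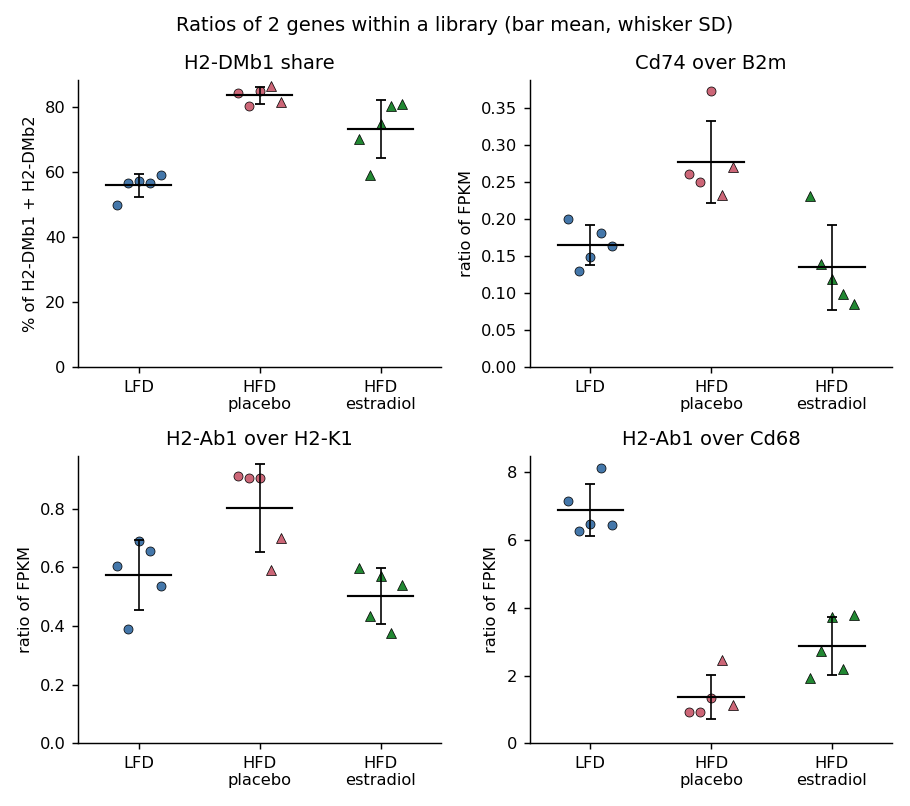
Ratios of 2 genes within each library, by group: the share of H2-DMb1 in H2-DMb1 plus H2-DMb2 (percent), and the ratios of FPKM of Cd74 to B2m, H2-Ab1 to H2-K1 and H2-Ab1 to Cd68 (vertical axes linear from 0). Circles are lane 5 libraries and triangles lane 6, the bar is the mean and the whisker 1 SD. The first ratios are highest with placebo, while H2-Ab1 relative to the macrophage gene Cd68 is highest in LFD, at 6.26 to 8.11. Cd68 moved more than the median macrophage marker.

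The class II pathway list held 16 genes outside the members, of which 6 were tested. Between LFD and placebo 4 of the 6 rose and 0 fell, beside 21.3% and 22% of all tested genes, with a median log2 difference of 1.65. With estradiol against placebo 0 rose and 4 fell, beside 14.3% and 16%, with a median of -1.42. The genes called were the same in both: the proteases Ctss, Ctsl and Lgmn and the thiol reductase Ifi30. Ctss, which trims the invariant chain, averaged 5.95 ± 1.54 in LFD, 46.8 ± 11.3 with placebo and 9.08 ± 6.33 with estradiol. Ifi30 averaged 2.92 ± 0.716, 12.3 ± 3.53 and 3.12 ± 1.11. Lgmn was the one called higher with estradiol than in LFD, at 7.67 ± 2.30 against 3.76 ± 0.891 (log2 difference 0.85, limma adjusted p = 0.0144). The X and Y box factors Rfx5, Rfxap, Rfxank, Nfya and Nfyb were below the level needed for the test.

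Of 14 genes that load class I, 11 were tested. Between LFD and placebo 5 rose and 0 fell, beside 21.3% and 22% of all tested genes: the chaperones Calr, Pdia3 and Tapbp and the immunoproteasome subunits Psmb8 and Psmb10. Within lane 5 the rises of Psmb10 and Tapbp were not called, at 0.28 and 0.19 (limma adjusted p = 0.116 and 0.11). With estradiol against placebo 3 fell, beside 16%: Calr, Canx and Psmb8. The call of Psmb8 (-0.33) was lost without placebo 3 or 4 or any 1 estradiol library (-0.35 to -0.22), and that of Canx (-0.24) without placebo 1 or 2 or estradiol 3 or 5 (-0.22 to -0.21). Within lane 6 none of the 3 was called, with -0.47 for Psmb8 and -0.15 for Canx (limma adjusted p = 0.11 and 0.439). Calr averaged 21.9 ± 1.57, 30.9 ± 3.84 and 23.4 ± 1.99 in LFD, placebo and estradiol (log2 differences 0.47 and -0.38, limma adjusted p = 0.00118 and 0.00777), and on lane 6 the fall was -0.24 (limma adjusted p = 0.344). The list's median log2 differences were 0.14 and -0.16.

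Class I-like genes outside the complex gave 0 higher and 2 lower of 4 tested in placebo against LFD, and 2 higher and 1 lower with estradiol against placebo, beside 21.3% higher and 22% lower of all tested genes in the first and 14.3% and 16% in the second. The genes called were Mr1 and Cd1d1 in the first comparison, and Mr1, Fcgrt and, lower, Hfe in the second. The call of Cd1d1 (-0.41) was lost without LFD 3, 4 or 5 or placebo 1, 2, 3 or 5 (-0.41 to -0.34), and on the deposited scale its sign turned (0.64, limma adjusted p = 0.172). Within lane 6 Fcgrt gave 0.31 and Hfe -0.58 (limma adjusted p = 0.212 and 0.0827). Mr1, which presents vitamin metabolites, averaged 2.13 ± 0.577 in LFD, 0.987 ± 0.127 with placebo and 1.74 ± 0.219 with estradiol. Its log2 differences were -0.64 and 0.46 (limma adjusted p = 1.6e-04 and 0.00316), opposite in sign to those of H2-K1, and with FPKM as deposited the first was 0.14 (limma adjusted p = 0.677).

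Interferon gamma is the best known inducer of Ciita and class I, and its signalling genes were fixed as a list. Of 22, 15 were tested, of which 2 rose and 0 fell in placebo against LFD, a share of the list below the 21.3% of all tested genes that rose: the transcription factor Irf8 and the receptor chain Ifngr2. With estradiol against placebo these and Ifngr1 fell, 3 of 15, a share near the 16% of all tested genes that fell, and 0 rose, beside 14.3%. The fall of Ifngr1 (-0.25) was not called within lane 6, at -0.29 (limma adjusted p = 0.091). Irf8 averaged 0.360 ± 0.170, 1.61 ± 0.310 and 0.504 ± 0.183 in LFD, placebo and estradiol, and it passed the filter through the placebo libraries alone, so its calls are no support. Irf1 had log2 differences of 0.04 and -0.07 (limma adjusted p = 0.853 and 0.763). The list's medians were 0.09 and -0.17. Ifng itself did not exceed 0.062 in any library.

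Among markers of the cells that carry class II, those of macrophages moved in the same directions as class II. The tested B cell markers, given below, were lower with placebo than in LFD. In a bulk sample fewer cells of a type and less RNA per cell cannot be told apart. Of 12 macrophage markers in the files 11 were tested. With placebo over LFD 10 rose and 0 fell, beside 21.3% and 22% of all tested genes. With estradiol against placebo 0 rose and 9 fell, beside 14.3% and 16%, and 5 were higher with estradiol than in LFD, beside 3.95%. Their summed level ran from 52.3 to 127 in LFD, from 181 to 527 with placebo and from 81.5 to 190 with estradiol. Cd68, a macrophage marker, averaged 2.73 ± 0.658, 31.6 ± 10.25 and 6.12 ± 2.37. H2-Ab1 stood at 6.26 to 8.11 times Cd68 in LFD, 0.915 to 2.47 with placebo and 1.94 to 3.80 with estradiol, so the ratio was lower in every placebo library than in any LFD library. Cd68 moved more than the list did. Its log2 differences were 3.08 for placebo against LFD and -2.18 for estradiol against placebo, beside list medians of 1.61 and -0.96. The size of the ratio's shift thus depends on the marker chosen. None of the macrophage markers in the files was at 0 in all libraries, and their part in the class II result was not tested.

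Of 9 dendritic cell markers only Itgax was tested, which macrophages of obese fat are also known to express. It averaged 0.178 ± 0.0789 in LFD, 3.96 ± 1.05 with placebo and 0.559 ± 0.605 with estradiol, and it passed the filter through the placebo libraries, so its calls are no support. Of the 9 dendritic cell markers, 7 stayed below 1 in every library, and Flt3, Xcr1, Clec9a, Ccr7 and Batf3 below 0.5. The 9 summed to 1.56 to 2.54 in LFD, 3.98 to 6.78 with placebo and 1.82 to 3.60 with estradiol. Itgax was the highest of them, at up to 4.65, and the others were not tested. Of 7 B cell markers 2 were tested, and both, Cd79a and Cd79b, fell with placebo against LFD, beside 22% of all tested genes. Both reached 1 in all LFD libraries and in at most 2 of any other group, so they too passed the filter mainly through the group where they were high. Their summed level ran from 5.16 to 11.6 in LFD, 1.08 to 5.40 with placebo and 1.37 to 7.86 with estradiol, and H2-Ob was likewise highest in LFD on average. T and natural killer cell markers were below the tested level and summed to at most 1.83 in any library. None of the markers of these cell types was at 0 throughout, and their part in the results was not tested.

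Adipocyte markers moved against class II. Of 9 tested, 1 rose and 8 fell with placebo against LFD, beside 21.3% and 22% of all tested genes. With estradiol against placebo 7 rose and 1 fell, beside 14.3% and 16%. They summed to between 1615 and 2581 in LFD, between 890.4 and 1494 with placebo and between 1614 and 2295 with estradiol. Endothelial markers gave 0 higher and 2 lower of 7 in placebo against LFD, beside 21.3% and 22%, so the share lower was near that of all tested genes. The part of these shifts in the levels of the members was not tested.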

How the data were processed

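The authors deposited FPKM by gene symbol, 1 file per library, from ribosomal RNA-depleted stranded libraries, per the labels' protocols. The tools named are STAR and Cufflinks, with genome build mm10, per the submitters' processing notes. Versions, annotation and the handling of reads shared by near-identical genes are not given in the sources used here. No read counts were used, and depth was estimated from the spacing of low FPKM values.

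Each library was divided by a median-of-ratios factor over 5874 genes. The 5615 genes that reached 1 in 5 or more libraries entered a limma 3.58.1 fit under R 4.3.3 (trend and robust moderation, all 15 libraries, group as the only factor) on log2(scaled FPKM + 1), at an adjusted p of 0.05. Ratios were compared by exact permutation tests. The procedure was tested on simulated data. Groups and replicate numbers come from the labels. The numbers name different mice: same-numbered libraries had residual correlations from -0.21 to 0.36, so libraries were treated as unpaired.

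The members, lists, motifs and tests were chosen with earlier results of these data known. The text gives every tested member, the untested ones by range or when named singly, and list genes that were called or that define the list. Gene positions are from GENCODE vM21, in which H2-L, H2-Q8, H2-Q9 and H2-T9 were not located. Of the lymph node stroma markers, 0 of 1 tested was called in each comparison. They summed to 9.65 in placebo 3, the library with the highest class II sum (289), and to at most 3.30 in LFD and estradiol libraries. Of the sum in placebo 3, Cxcl13 alone gave 9.46, so the other lymph node stroma markers were low there. The part of these markers in the class II levels was not tested. Of 6 tested adipose progenitor markers, 2 were higher in placebo than LFD, beside 21.3% of all tested genes. With estradiol 3 were higher than with placebo, beside 14.3%, and 2 higher than in LFD, beside 3.95%.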

Additional observations from a re-analysis of the deposited data

How the results depend on the processing

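Alternatives covered the scaling, pseudocount, filter, lane, replicate block, moderation and left-out libraries. Of 1105 values of tested members under them, 59 lost a call, 22 gained one, 1022 did neither, with changes of sign among them in uncalled values alone, and 2 turned sign with a call on 1 side: with FPKM as deposited, placebo minus LFD was 0.58 for H2-DMb2 and 0.22 for H2-Ke6, and outside the members 0.14 for Mr1 and 0.64 for Cd1d1. That scaling moved the median of all genes by 0.77, -0.27 and 0.49 in the 3 comparisons, and a constant sum by 0.28, -0.03 and 0.24. Class II members higher in placebo than LFD numbered 6 in each left-out-library fit, and those lower with estradiol against placebo 6 to 7, but 4 of 4 with the minimum of 5. Class II members lower with estradiol than in LFD numbered 0 to 1.

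Class I members higher in placebo than LFD numbered 4 as deposited, 4 with a constant sum and 1 on lane 5. Those lower with estradiol against placebo numbered 0, 0 and, on lane 6, 1. Non-classical members higher in placebo numbered 5 as deposited, 4 with a constant sum, 2 without Mir6236, 0 with the minimum of 5, and 1 to 2 without single libraries. Those lower with estradiol against placebo numbered 1 as deposited and with pseudocount 0.1, 0 with a constant sum, no filter, the minimum of 5, lane as a term or lane 6 alone, and 0 to 3 without single libraries. Those lower with estradiol than in LFD numbered 0 as deposited, with a constant sum, no filter, the minimum of 5 or lane as a term, and 0 to 1 without single libraries.

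Over all genes, placebo minus LFD gave 2431 calls, and 3908 with no filter, 612 with the minimum of 5 and 1343 on lane 5. Estradiol minus placebo gave 1706, and 276 as deposited, 831 with a constant sum, 2606 with no filter, 448 with the minimum of 5, 711 with lane as a term and 637 on lane 6. Estradiol minus LFD gave 432, and 39 as deposited, 177 with the minimum of 5 and 162 with lane as a term. Fewer genes or samples enter the fits with the minimum of 5 and within lanes; for the other settings the cause was not tested.

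Without single libraries the log2 ratio of H2-Ab1 to H2-K1 ran from 0.35 to 0.59 for placebo minus LFD and from -0.78 to -0.57 for estradiol minus placebo, and that of Cd74 to B2m ran from -0.58 to -0.22 for estradiol minus LFD. Within lanes, H2-Ab1 to H2-K1 gave 0.69 (lane 5) and -0.37 (lane 6). Cd74 to B2m gave -0.98 (lane 6, exact permutation p adjusted 0.19). On lane 6, 2 placebo libraries against 5 leave too few permutations for a p below 0.05. With the replicate block, the ratio tests kept their differences of -0.67 (H2-Ab1 to H2-K1, estradiol minus placebo), 0.74 and -1.11 (Cd74 to B2m) at an exact permutation p adjusted to 0.125, above the threshold because 5 pairs allow few sign flips. The block also left 1 non-classical member lower with estradiol against placebo, in place of 2, as H2-Q8 was not called (limma adjusted p = 0.0596), and H2-Ke6 lost its call there (0.0722). Values below a scaled FPKM of 1 rest on few fragments.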
